A study of Homo sapiens with 9 samples.

Results

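The S100 genes described here encode 7 calcium-binding proteins, S100A4, S100A6, S100A8, S100A9, S100A10, S100A11 and S100A12, which were chosen by name. All their probes on the array were taken, 9 in number, for 7 of the 20046 genes that had a probe with a single gene symbol. Both S100A4 and S100A10 had a pair of probes and the other genes had 1. Total RNA had been isolated from U937 cells, an established human myeloid line with monocytic features, and hybridized to 9 HumanHT-12 v4 arrays (Illumina). The vector, lentiviral with an H1 promoter, carried a hairpin (shRNA) that targets DEK, either shDEK14 or shDEK17, or none, shEMPTY. Each of these 3 groups held 3 arrays, here called libraries. All groups were grown in medium with 10% serum, sorted for GFP 48 h after transduction and cultured for 4 days before RNA isolation. The controls thus went through the same kind of vector, transduction and sort. The labels do not say whether replicates came from separate transductions, and a p-value here reflects the variation among these 9 samples, possibly technical in part.

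S100 proteins are small calcium sensors that mostly work as dimers, in which calcium binding to EF-hand loops exposes a surface that grips target proteins. S100A8, S100A9 and S100A12 are abundant in the cytoplasm of mature neutrophils and monocytes, where S100A8 and S100A9 form the heterodimer calprotectin, and once released they act as alarmins through TLR4 and RAGE. S100A4, S100A6, S100A10 and S100A11 are found in many cell types, where they bind cytoskeletal proteins and annexins, and S100A10 is the exception that has lost the ability to bind calcium.

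The transcript that was targeted, DEK, did not follow the labels. DEK had 1 probe. Its deposited intensity in replicates 1, 2 and 3 was 2510, 293.9 and 2580 under the label shEMPTY, 2360, 359.4 and 2826 under shDEK14 and 431.6, 1890 and 532.0 under shDEK17. The paper reports a check of the knockdown by Western blot, a measure of protein that these arrays do not give. Thus 4 libraries were below an intensity of 1000 and 5 were above it, and the intensity went against the label in replicate 2 of shEMPTY and of shDEK17 and in replicates 1 and 3 of shDEK14. Groups are named by label throughout, and a comparison between labels here need not be one of cells with lowered DEK against controls. The library labelled shEMPTY replicate 2 stood apart in interferon response genes, whose list of 16 tested genes deviated by a mean of 3.15 on the log2 scale from the 9-library mean there and by -0.69 to -0.20 elsewhere. The arrays detected 12729 to 14152 probes. Of 20 monocyte and macrophage markers, 10 were tested and VCAN, MNDA, CD163, MARCO and ITGAX were detected on no array, whereas the lysosomal glycoprotein CD68 and the signalling adaptor TYROBP were detected on all 9, and so was myeloperoxidase, MPO, a granule enzyme of immature granulocytes and monocytes.

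The alarmin genes lie close together on chromosome 1, where S100A9 and S100A12 are direct neighbours in the RefSeq gene table, and S100A6 and S100A4 are separated by S100A5 alone. Promoters of S100A9, S100A8 and S100A12 are shown because their probes were the dimmest in rank, while that of S100A9 varied most between libraries, and that of S100A4 is shown because its probe ranked highest. Each is the 250 bases before an annotated start (for S100A8, 1 of 3 starts) in RefSeq GRCh38.p14, read 5′ to 3′ on the strand of the gene. Capitals mark matches on either strand to TTGCNNAA, an element of the C/EBP factors of myeloid cells, and to AGGAAG, the core bound by the myeloid factor PU.1. They also mark TATAAA, which positions the polymerase. The E box, CACGTG, was searched as well and has no match here. No matches overlap.
S100A9, chr1:153357604-153357853, plus strand: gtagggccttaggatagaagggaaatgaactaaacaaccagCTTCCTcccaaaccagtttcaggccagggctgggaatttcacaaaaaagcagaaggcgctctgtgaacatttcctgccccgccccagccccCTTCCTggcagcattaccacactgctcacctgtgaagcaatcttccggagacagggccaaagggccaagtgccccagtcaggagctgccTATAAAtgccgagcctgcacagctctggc
S100A8, chr1:153391074-153391323, minus strand: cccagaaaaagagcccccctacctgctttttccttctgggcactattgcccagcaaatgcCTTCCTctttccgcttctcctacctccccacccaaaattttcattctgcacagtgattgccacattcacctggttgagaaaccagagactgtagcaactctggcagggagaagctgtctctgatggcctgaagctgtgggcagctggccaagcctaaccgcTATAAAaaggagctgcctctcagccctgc
S100A12, chr1:153375622-153375871, minus strand: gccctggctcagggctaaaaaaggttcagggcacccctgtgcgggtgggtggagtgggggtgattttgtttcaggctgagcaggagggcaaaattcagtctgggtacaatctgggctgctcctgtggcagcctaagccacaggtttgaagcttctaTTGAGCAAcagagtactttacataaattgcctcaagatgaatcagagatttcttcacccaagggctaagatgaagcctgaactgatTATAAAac
S100A4, chr1:153545807-153546056, minus strand: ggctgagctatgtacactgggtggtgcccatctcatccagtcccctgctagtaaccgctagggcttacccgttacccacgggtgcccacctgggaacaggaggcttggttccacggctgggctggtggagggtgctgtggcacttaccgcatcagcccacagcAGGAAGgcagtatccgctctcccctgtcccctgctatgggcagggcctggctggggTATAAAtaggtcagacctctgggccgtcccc
The S100A9 window held PU.1 letters at 209 and 118 bases before the start (counted from the leftmost base of the match), both in reverse orientation, and a TATA box at 29. That of S100A8 held the PU.1 letters at 190 and a TATA box likewise at 29, S100A12 a C/EBP match at 94 and a TATA box at 8, and S100A4 the PU.1 letters at 87 and a TATA box at 31. The S100A8 windows not shown overlap the one printed, and their matches are the same sites at other distances from the start. That at 153390977-153391226 held the same TATA box, at 126, and no PU.1 letters. That at 153391189-153391438 held the same PU.1 letters, at 75, and no TATA box. Among 35116 promoters of the same length, 28.7% held the PU.1 letters, 10.7% the TATA box, 9.05% the C/EBP letters and 6.34% the E box. A match describes these letters only. The remaining members had no TATA box match. S100A10 had the PU.1 letters at 84 and S100A11 a C/EBP match at 33, while the window of S100A6 held none of the 4 motifs.

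To describe the baseline, each probe was ranked by brightness among the 47323 probes of its array in the libraries labelled shEMPTY, where rank 1 is the brightest. A rank reflects how well a probe hybridizes as well as how much transcript there is, so that it describes the probe and does not order the genes by amount. S100A4, which binds non-muscle myosin and is tied to cell motility, had probes at ranks 356 to 489 and 583 to 855. The probe of S100A6, or calcyclin, was at ranks 1387 to 1670. S100A10, the partner of annexin A2, had probes at ranks 2690 to 3232 and 3196 to 3791, and S100A11, which binds annexin A1, was at ranks 3799 to 4698. These probes were thus brighter than at least 90.1% of the probes on every one of the 9 arrays, and all were detected on all 9, with detection p (the share of negative control beads at least as bright) under 0.01.

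The alarmin probes ranked lower. S100A9 was at ranks 10524 to 11456 in the libraries labelled shEMPTY and was detected on all 9 arrays. S100A8 was at ranks 14386 to 22823 there, was not detected in any of them, and passed on 2 of the 9 arrays. S100A12 was at ranks 36497 to 46329 and was detected on no array, with detection p from 0.595 to 0.986. S100A8 and S100A12 were therefore outside the test, and 5 of the 7 genes were among the 8611 tested.

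**Figure D1:**
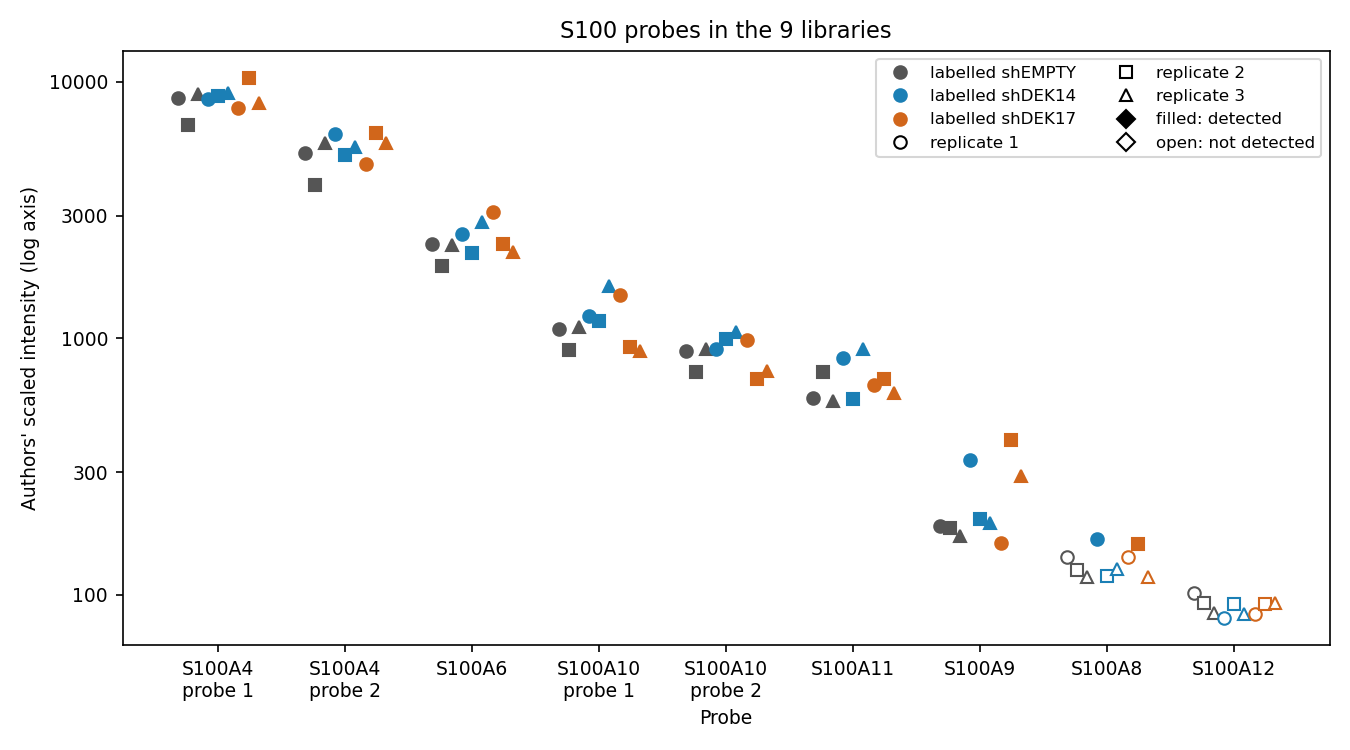
Scaled intensity (vertical, log axis) of the 9 S100 probes (horizontal) in each library, with colour for the label, shape for the replicate and open symbols where the probe was not detected. Heights of different probes are not comparable amounts. All S100A12 points and 7 of the 9 S100A8 points are open, and the S100A9 points spread from 158.9 to 401.1.

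S100A9, the larger calprotectin subunit, varied most. On the scale of the authors' scaled intensities it was 184.5, 182.5 and 168.6 in the libraries labelled shEMPTY replicates 1 to 3. It was 333.8, 197.0 and 190.0 under the label shDEK14, and 158.9, 401.1 and 290.4 under shDEK17. The 3 libraries labelled shEMPTY were close together, whereas shDEK14 replicate 1 and shDEK17 replicates 2 and 3 lay well above them and shDEK17 replicate 1 lay below them. The highest library was 2.52-fold above the lowest, both carried the label shDEK17, and the rank of the probe moved from 12406 to 5793 between them. On the normalized log2 scale the SD over the 9 libraries was 0.82, which was larger than that of 99.5% of the genes tested, against a median of 0.26. The size of this spread depends on the scale. Deviations from the 9-library mean ran from -0.94 to 1.38 there and from -0.48 to 0.85 in log2 of the scaled intensities.

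Between labels, the normalized S100A9 level was 6.43 ± 0.14 (log2, SD, n = 3) for shEMPTY, 7.13 ± 0.71 (n = 3) for shDEK14 and 7.37 ± 1.20 (n = 3) for shDEK17. Against shEMPTY, the mean of both shRNAs gave a log2 fold change of 0.82 ± 0.43 (SE, limma adjusted p of 0.953, 95% interval -0.12 to 1.76), called the average contrast from here on. The value was 0.70 ± 0.50 for shDEK14 (adjusted p of 0.954) and 0.94 ± 0.50 for shDEK17 (adjusted p of 0.999), both with limma. In this order of the labels no neighbours differed beyond their spread, and shDEK14 minus shDEK17 was -0.24 ± 0.50 (SE). All 3 libraries labelled shDEK14 were above all 3 labelled shEMPTY, but those labelled shDEK17 were not. The log2 fold change for shDEK14 was 0.30 without shDEK14 replicate 1, and that for shDEK17 was 0.44 without shDEK17 replicate 2 and 1.61 without shDEK17 replicate 1. The average rested on single libraries and on the scale, with 0.57 without the library labelled shDEK17 replicate 2, 1.15 without shDEK17 replicate 1, 0.51 without background correction and 0.47 on the authors' scaled values.

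S100A8, the other calprotectin subunit, was detected in the library labelled shDEK14 replicate 1, at a scaled intensity of 164.5 (detection p of 0.0039), and in that labelled shDEK17 replicate 2, at 156.8 (detection p of 0.0026). These were the 2 libraries with the most S100A9. In the others it was not well above background, at 139.6, 124.2 and 116.7 for shEMPTY replicates 1 to 3, 117.6 and 125.7 for shDEK14 replicates 2 and 3 and 140.1 and 117.4 for shDEK17 replicates 1 and 3. The mean of each labelled group lay below the dimmest detected probes, so no fold is given. In the library labelled shDEK17 replicate 3, next in S100A9, S100A8 was not detected (detection p of 0.119), and the background values have no order.

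Over the 9 libraries, normalized S100A8 and S100A9 had r = 0.611. S100A8 was at background on 7 of the arrays, so this value mainly sets the 2 libraries with detected S100A8 against the rest, and no test is drawn from it.

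**Figure D2:**
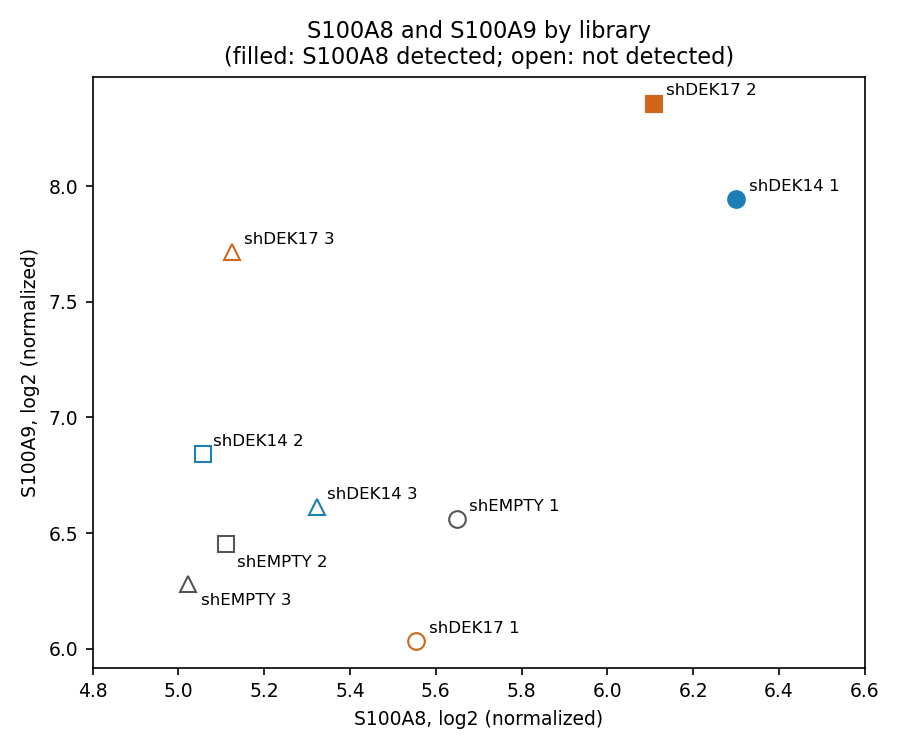
Normalized log2 level of S100A8 (horizontal) against S100A9 (vertical), 1 point per library, with filled symbols where S100A8 was detected. Replicate 1 of shDEK14 and replicate 2 of shDEK17 are apart at the upper right, and the S100A8 values of the other 7 points are background.

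S100A12, or calgranulin C, was at scaled intensities of 80.8 to 101.1. Replicate 1 of shEMPTY held its highest value and replicate 1 of shDEK14, the brightest for S100A8, its lowest. With detection p never under 0.595, these values are background and have no order.

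S100A4 was the steadiest of the 5 tested members. Its brighter probe had scaled intensities of 8635, 6760 and 8905 under the label shEMPTY, 8518, 8742 and 9048 under shDEK14 and 7913, 10340 and 8257 under shDEK17. The library labelled shEMPTY replicate 2 was the lowest and shDEK17 replicate 2 the highest, 1.53-fold apart, and the groups overlapped. The dimmer probe had the same lowest and highest libraries, at 3950 and 6322. On the normalized scale the SD over the 9 libraries was 0.16, larger than that of 12.2% of the genes tested. The average log2 fold change was 0.079 ± 0.15 (SE, limma adjusted p of 0.986) and 0.16 ± 0.17 for the dimmer probe. Without the library labelled shEMPTY replicate 2 the brighter probe gave -0.044 ± 0.17 (SE).

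S100A6, which binds calcyclin-binding protein and annexins, was at 2331, 1904 and 2298 under the label shEMPTY, 2548, 2143 and 2843 under shDEK14 and 3113, 2334 and 2172 under shDEK17. The libraries labelled shDEK17 replicate 1 and shDEK14 replicate 3 were highest, shEMPTY replicate 2 was lowest, and the groups overlapped. The average log2 fold change was 0.24 ± 0.17 (SE, limma adjusted p of 0.960), and 0.14 ± 0.20 without shEMPTY replicate 2.

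S100A10, which links annexin A2 and the giant scaffold AHNAK to membranes, was high in the same 2 libraries. Its brighter probe was at 1081, 900.2 and 1105 under the label shEMPTY, 1220, 1166 and 1591 under shDEK14 and 1471, 921.7 and 893.0 under shDEK17. The libraries labelled shDEK14 were all above those labelled shEMPTY, and those labelled shDEK17 spread over nearly the whole range. The dimmer probe, at 690.8 to 1053, was also highest in shDEK14 replicate 3, then in shDEK14 replicate 2 at 990.0 and shDEK17 replicate 1 at 986.5. Its groups labelled shDEK14 and shEMPTY overlapped, at 902.1 and 902.2. For the brighter probe the log2 fold change was 0.42 ± 0.24 (SE) for shDEK14 (limma adjusted p of 0.954), 0.12 ± 0.24 for shDEK17 (0.999 with limma) and 0.27 ± 0.21 for the average (0.960 with limma). The dimmer probe gave 0.27 ± 0.20 (SE) for shDEK14, -0.017 ± 0.20 for shDEK17 and 0.13 ± 0.17 for the average. Without the library labelled shDEK17 replicate 1 the value of the brighter probe for shDEK17 was -0.15 ± 0.20 (SE), and that for shDEK14 was 0.28 without shDEK14 replicate 3. Over the 9 libraries the normalized levels of S100A6 and S100A10 had r = 0.872, the highest among the 10 pairs of tested members, whereas S100A9 and S100A10 had -0.425, the lowest. These values describe 9 arrays, on which all genes of a pair share a library.

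S100A11, which takes part in membrane repair with annexins, was at 583.6, 736.2 and 567.5 under the label shEMPTY, 837.0, 578.3 and 904.7 under shDEK14 and 657.8, 689.3 and 608.8 under shDEK17. The libraries labelled shDEK14 replicates 1 and 3 were highest and shEMPTY replicate 3 was lowest. Unlike S100A6 and S100A10 it was not low in the library labelled shEMPTY replicate 2, which was the third highest. The average log2 fold change was 0.24 ± 0.18 (SE, limma adjusted p of 0.960) and 0.37 ± 0.20 without that library.

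**Figure D3:**
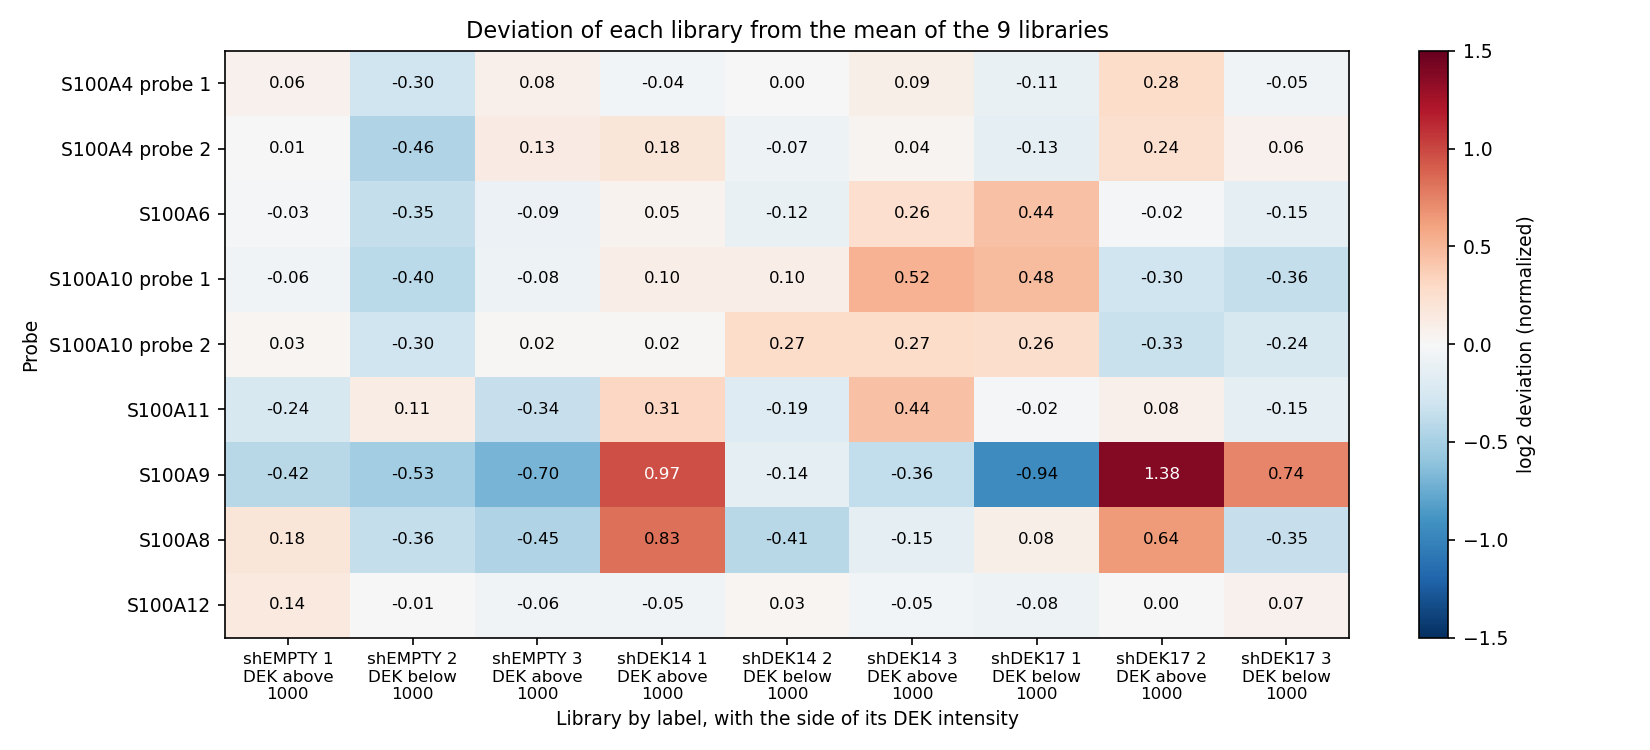
Deviation of each library (columns, by label, with the side of its DEK intensity) from the 9-library mean of each S100 probe (rows), in log2 units of the normalized values. S100A9 spans -0.94 to 1.38, and S100A6 and both S100A10 probes are above 0 in shDEK14 replicate 3 and shDEK17 replicate 1.

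As a group, the 5 tested genes all had estimates above 0 in the average contrast, with a median of 0.24 and a range of 0.079 to 0.82, where 48.1% of the 8611 genes had estimates above 0 and the median of all was -0.0099. The members were also all above 0 for shDEK14, with a median of 0.35 (49.4% of all genes), and for shDEK17, with a median of 0.13 (46.7% of all genes), contrasts that share the same control libraries. For shDEK14 against shDEK17, 2 were above 0 (49.9% of all genes) and 3 below. None of the 5 passed the limma adjusted threshold of 0.05 in any contrast, nor did any of them have an unadjusted p under 0.05 in this fit. With array weights 1 of the 5 had an unadjusted p under 0.05 in the average, 1 for shDEK14 and 1 for shDEK17. Of all 8611 genes, 313 higher and 316 lower did so there in the average, 316 and 386 for shDEK14 and 225 and 197 for shDEK17. Without the library labelled shDEK17 replicate 1 the members numbered 1, 2 and 1, with 2 between the shRNAs. All genes then gave 289 higher and 276 lower, 239 and 260, and 276 and 311, with 263 and 245 between the shRNAs. With all 9 libraries and no weights, limma called 0 of all genes in each contrast, which is 0%. At an unadjusted p under 0.05 it had 451 in the average (5.24%), 390 for shDEK14 (4.53%), 327 for shDEK17 (3.8%) and 156 between the shRNAs (1.81%). The methods' t-test also called 0 after adjustment, with 562, 455, 329 and 192 genes at an unadjusted p under 0.05. In the average contrast no tested member had all 6 libraries labelled with an shRNA beyond all 3 labelled shEMPTY, as 3.09% of all genes did. For shDEK14, S100A9 and S100A10 were higher without overlap, as were 5.49% of all genes, and 11.1% did not overlap in either direction. For shDEK17 no member was apart, against 4.03% of all genes higher and 8.18% in either direction, nor was any between the shRNAs (5.09% in either direction). These RNA pools cannot tell fewer expressing cells from less RNA per cell.

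**Figure D4:**
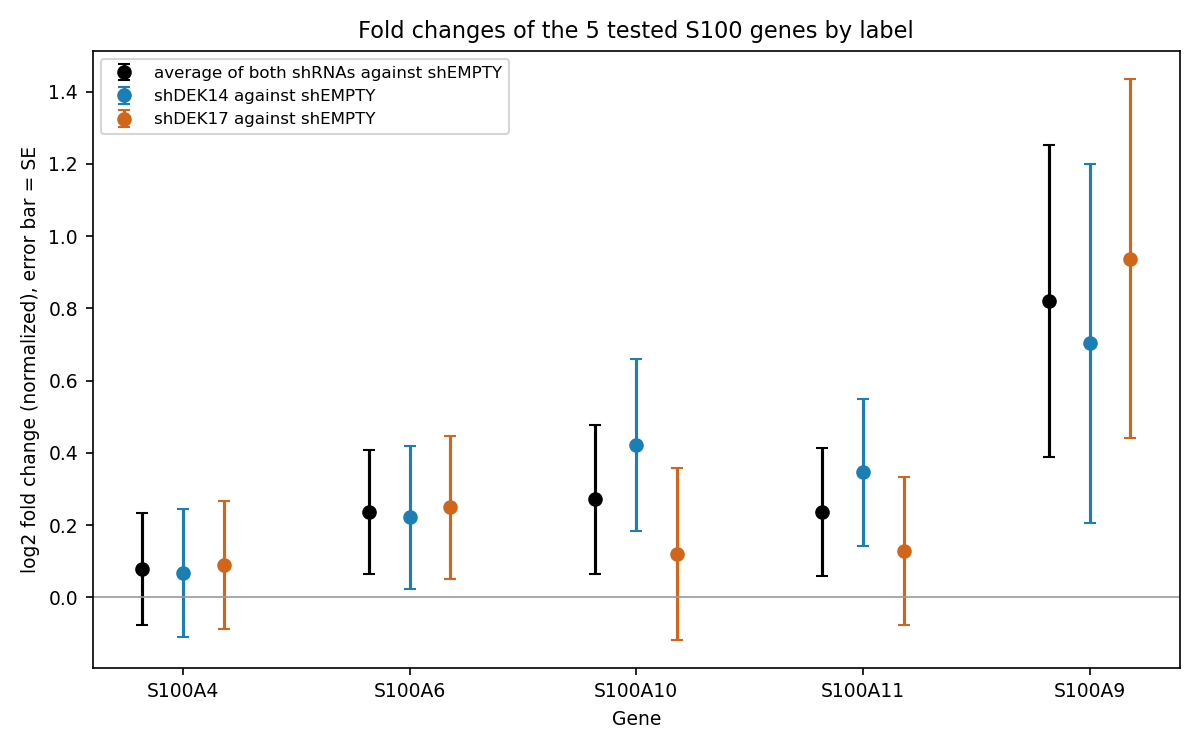
log2 fold change of normalized values (vertical, points, with bars of 1 SE) for the 5 tested S100 genes (horizontal) in the average contrast and for each shRNA against shEMPTY. All points are above 0, S100A9 is highest at 0.82 in the average and has the widest bars, and none passed the adjusted threshold.

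The libraries were then arranged by the DEK intensity, with 4 below 1000 and 5 above, as ranges only, since DEK was itself measured on these arrays. The scaled intensity of S100A9 ranged from 158.9 to 290.4 in the libraries with low DEK and from 168.6 to 401.1 in those with high DEK. That of S100A8 ranged from 117.4 to 140.1 and from 116.7 to 164.5, and both libraries with detected S100A8 had high DEK. The brighter S100A4 probe came closest to separation, with 6760 to 8742 at low DEK and 8518 to 10340 at high DEK, and the library labelled shDEK14 replicate 2 was the one low-DEK library within the upper range. The dimmer S100A4 probe ranged from 3950 to 5747 and from 5269 to 6322. For this probe shDEK17 replicate 3, at 5747, was the low-DEK library within the upper range, and shDEK14 replicate 2, at 5188, was below it. S100A6 ranged from 1904 to 3113 and from 2298 to 2843, and S100A11 from 578.3 to 736.2 and from 567.5 to 904.7. The brighter S100A10 probe had 893.0 to 1471 and 921.7 to 1591. The ranges overlapped for all 9 probes, including the background values of S100A12, at 84.3 to 92.8 and 80.8 to 101.1. Of the 4 libraries on the side of DEK against their label, shDEK14 replicate 1 and shDEK17 replicate 2 were the highest for S100A9, while shDEK14 replicate 3 and shEMPTY replicate 2 were not.

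**Figure D5:**
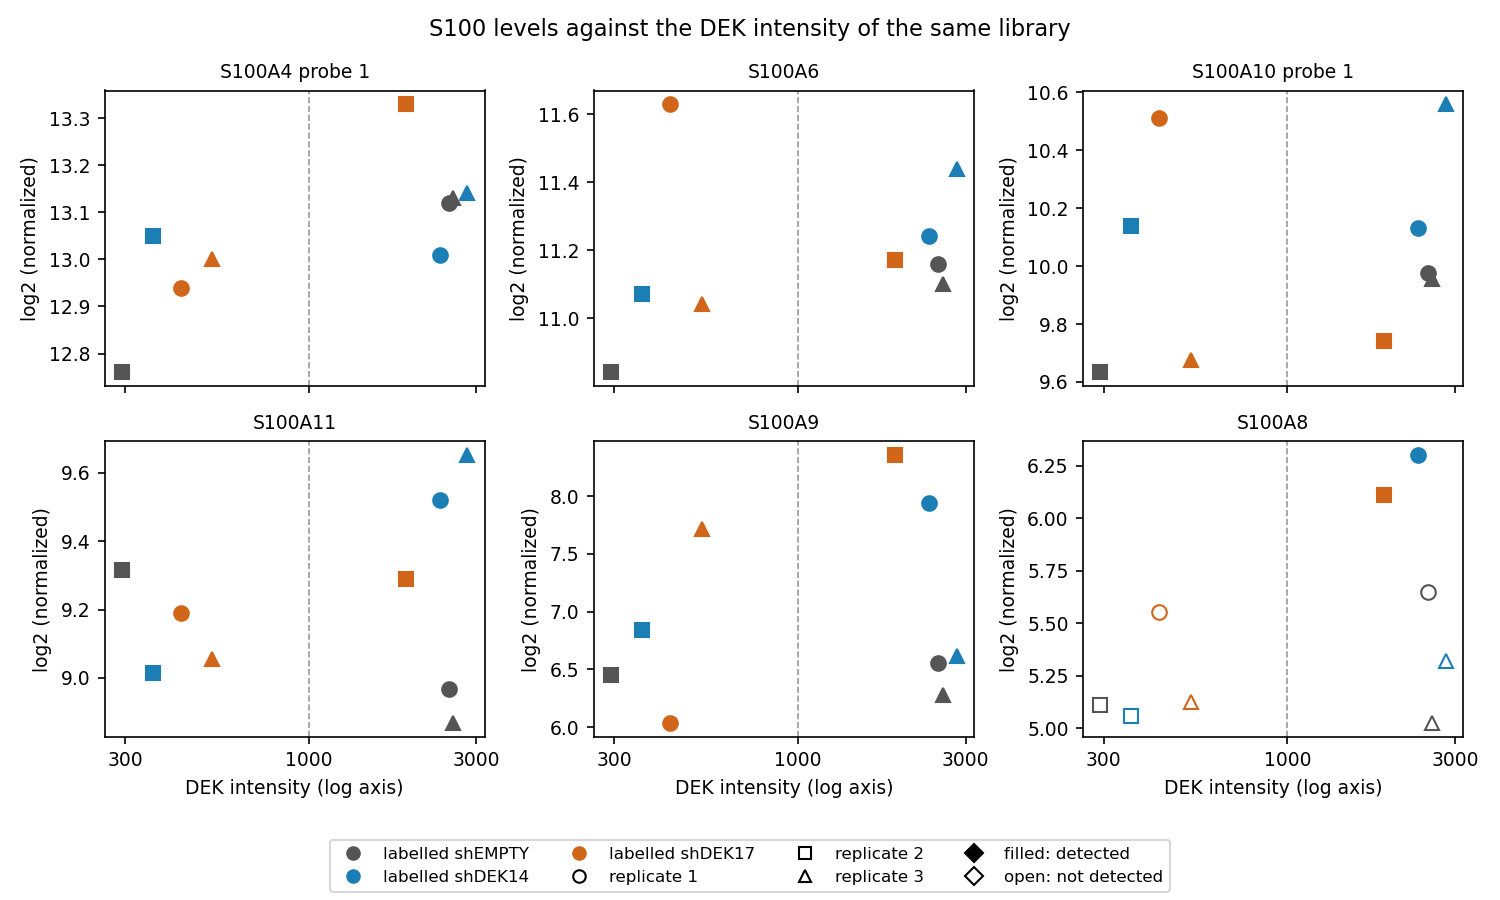
Normalized log2 level of 6 S100 probes (vertical, 1 panel each) against the DEK intensity of the same library (horizontal, log axis), with colour for the label, shape for the replicate, open symbols where not detected and a dashed line at 1000. In every panel the ranges on both sides of the line overlap, and for the brighter S100A4 probe, the one drawn, only shDEK14 replicate 2 reaches the upper range from the left.

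Of the other S100 genes, 14 were on the array with 21 probes, and 17 of these probes were detected nowhere. S100A13, which takes part in the release of growth factors, and S100Z were detected on all 9 arrays, each by 1 of its probes, while S100A14 and S100P passed on 1 array each. S100A13 had an average log2 fold change of 0.27 ± 0.16 (SE) and S100Z of 0.11 ± 0.18, with limma adjusted p of 0.960 and 0.984. For shDEK17, S100A13 gave 0.47 ± 0.18 (SE), with a limma adjusted p of 0.999.

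Genes around the S100 proteins were counted in lists of receptors, intracellular partners and transcription factors. Of 60 such genes 44 were tested, 26 with an average estimate above 0 and 18 below, and limma called 0. Of the receptors and their signalling, 7 of 15 were tested, 5 above 0 and 2 below, with a median log2 fold change of 0.065. TLR4, detected on 2 arrays, and AGER, the gene of RAGE, detected on no array, were not among those tested. Partners divided 10 to 9 over 19 of 21 genes, with a median of 0.018, and transcription factors 11 to 7 over 18 of 24, with a median of 0.066. Calcium sensors outside the family, 16 of 20 tested, divided 6 to 10 with a median of -0.055. These medians lay close to the -0.0099 of all genes.

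The lowest unadjusted p among the 44 belonged to annexin A6, ANXA6, with an average log2 fold change of -0.43 ± 0.15 (SE, limma adjusted p of 0.937). ATF3, a stress-induced transcription factor, had -0.76 ± 0.29 (SE), and was at 7.32 (log2) in the library labelled shEMPTY replicate 2 against 5.12 to 5.91 elsewhere, with detection on 3 arrays. CD36, a scavenger receptor, had -0.34 ± 0.17 (SE), and TRAF6, an adaptor of TLR signalling, 0.27 ± 0.19. MYH9, the non-muscle myosin heavy chain bound by S100A4, had 0.27 ± 0.17 (SE) and was highest, at 11.45 and 11.29, in replicate 3 of shDEK14 and replicate 1 of shDEK17. AHNAK had 0.57 ± 0.38 (SE) and reached 9.23 in shDEK17 replicate 1, 1 of the 2 libraries highest for S100A6 and the brighter S100A10 probe, against 7.13 to 8.43 in the others. None of these 6 passed, with limma adjusted p of 0.937 to 0.960.

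By likeness, the genes that followed each tested member most closely over the 9 normalized libraries were listed by Pearson's r among 8610 genes, as a description without a test. S100A9 was followed by LUC7L (r = 0.975), the retinoid X receptor RXRA (0.947) and URB2 (0.942). S100A6 was followed by the centromere chaperone HJURP (r = 0.976), APOBEC3B (0.965) and ARHGAP11B (0.962), and S100A10 by MXD3 (r = 0.935), SLC35E2B (0.934) and SPAG6 (0.932). S100A4 was followed by RHBDL3 (r = 0.954), which was detected on 3 arrays only, BAZ1A (0.927) and BRCA1 (0.909), and S100A11 by the U1 small nuclear RNA RNU1-1 (r = 0.945), SARS1 (0.944) and ABHD8 (0.919).

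Marker lists of cell types moved between the same libraries. The mean log2 level of the 10 tested monocyte and macrophage markers ranged from 7.07 to 7.66 for shEMPTY, 7.14 to 7.50 for shDEK14 and 6.84 to 7.67 for shDEK17. It was highest in shDEK17 replicate 2 and lowest in shDEK17 replicate 1, as was S100A9, and its second highest value, in shEMPTY replicate 2, was not matched by S100A9. The 6 tested neutrophil granule genes of 12 ranged from 7.18 to 7.80, 6.44 to 7.90 and 6.47 to 8.15 in the same order. Their lowest levels were in shDEK14 replicates 1 and 3 and shDEK17 replicate 2, where the protease CTSG was at 6.80, 6.72 and 6.48 (log2) against 8.79 to 10.12 elsewhere and MPO was at 11.88, 12.04 and 11.83 against 12.60 to 12.84. The adaptor TYROBP was low in the same libraries, at 8.34, 8.53 and 8.30 against 8.82 to 9.59, whereas S100A9 was high in the first and the last of them only. TYROBP is of the monocyte and macrophage list, whose mean did not follow it. That mean deviated from the 9-library mean by 0.25 in shDEK14 replicate 1, -0.11 in shDEK14 replicate 3 and 0.42 in shDEK17 replicate 2. The markers LCN2, CAMP, MMP8, MMP9 and CEACAM8 of mature granules and neutrophils were detected on no array. LTF of the same list was detected on 2 arrays and FCGR3B on 7. The part of these genes in the S100 values was not tested.

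Other cell types were represented by few markers. Of 8 T and NK cell markers only NKG7 was tested, and 6 were detected on no array, among them CD3D, CD3E and CD3G. Of 5 B cell markers CD79A and CD79B were tested, of 8 erythroid and megakaryocyte markers none and of 8 keratinocyte and epithelial markers only KRT10, with KRT5, KRT14 and EPCAM detected on no array.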

How the data were processed

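U937 RNA was measured on 9 HumanHT-12 v4 arrays. For each of 47323 probes the authors deposited a bead intensity that was not normalized and its detection p-value, whose steps are 1 in 770. A second table deposited by the authors held the same intensities scaled by 1 factor per array to a mean of 406.2, with medians of 110.1 to 119.3, linear and not centred. The method of that scaling and the scanner software are not given in the sources used here. S100 values per library are from the second table. DEK intensities and log2 values are from the first, except where the authors' scaled values are named.

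Gene symbols came from the platform annotation, which gave 1 symbol to 30113 probes, several to 8 and none to 17202, and 30074 were matched to RefSeq GRCh38.p14. Intensities were processed with neqc (offset 16, quantile normalization) in limma 3.58.1 under R 4.3.3. A detection p under 0.01 in 3 or more arrays was required (14230 probes), the brightest per gene stood for it (8611 genes), and 1 limma fit over the 9 arrays gave 4 contrasts, with Benjamini-Hochberg adjustment over all genes and a threshold of 0.05. The fit was tested on simulated data. Figures were drawn with matplotlib 3.10.9 in Python 3.11.15. The number of arrays limits the precision.

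The members, lists and tests were chosen with earlier results of these data known. Named were all S100 probes, kept genes of the family, the 6 list genes of lowest p, the 3 genes most like each tested member and the 2 brightest markers per list. The alternatives covered background correction, normalization, filters, probe choice, array weights, moderation, the experiment number as a block and each array left out.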

Additional observations from a re-analysis of the deposited data

How the results depend on the processing

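No S100 gene was called under any alternative run. The direction turned with median scaling for S100A4 and S100A6 between shDEK14 and shDEK17 (0.016 and 0.020) and with array weights for S100A6 in the same contrast (0.062) and for S100A10 in shDEK17 against shEMPTY (-0.019). Under single arrays or experiment numbers left out, S100A4 ranged from -0.10 to 0.19 in the average, -0.055 to 0.15 for shDEK14, -0.15 to 0.22 for shDEK17 and -0.10 to 0.11 between the shRNAs, and, between the shRNAs, S100A6 ranged from -0.24 to 0.15 and S100A9 from -1.31 to 0.41. S100A10 for shDEK17 ranged from -0.15 to 0.32. Genes called over all genes ranged from 0 to 1 in the average, 0 to 4 for shDEK14, 0 to 1 for shDEK17 and 0 to 10 between the shRNAs, where all counts above 0 came without the 3 libraries numbered 2. The correlation of S100A8 and S100A9, which rests on background values of S100A8 on 7 arrays, ranged from 0.435 to 0.778 and was -0.352 without shDEK17 replicate 2 and shDEK14 replicate 1. The cause of these shifts was not tested.

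Without a detection filter (20046 genes), S100A8 and S100A12 entered the fit and were not called, and no fold is given for signals at background. Higher against lower genes at an unadjusted p under 0.05 divided 232 to 219 in the average and 139 to 353 on the authors' scaled values, 185 to 205 for shDEK14 and 227 to 150 with median scaling or 119 to 310 on the authors' values, 182 to 145 for shDEK17 and 117 to 195 with median scaling or 104 to 226 on the authors' values, and 78 to 78 between the shRNAs and 159 to 32 with median scaling. At an unadjusted p under 0.05, no detection filter gave 1064, 983, 947 and 677 genes in the contrasts as ordered above, and array weights gave 629, 702, 422 and 330. The labels number the libraries by experiment without saying what an experiment shared, and the deviations of libraries of the same number correlated from -0.43 to 0.27 over 9 pairs, 1 of them above 0.1. Pairs of different number ranged from -0.235 to 0.475. The highest were shDEK14 replicate 1 with shDEK17 replicate 2 (0.475) and shDEK14 replicate 3 with shDEK17 replicate 1 (0.389). The former were the libraries highest for S100A9, the latter those highest for S100A6 and the brighter S100A10 probe. What these libraries shared was not tested. With the replicate block, limma called 0 genes in each contrast (331, 260, 245 and 115 at an unadjusted p under 0.05). In this balanced design the block cannot change an estimate, only its error, and S100A9 had 0.82 ± 0.46 (SE) in the average.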
